A study of Mus musculus with 32 samples.

Results

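The genes described here are 10 genes of MHC antigen presentation, chosen by name from 53700 genes counted by RNA sequencing in mouse kidneys. They are the class II genes *H2-Aa*, *H2-Ab1*, *H2-Eb1*, *Cd74* and *Ciita*, and the class I genes *H2-K1*, *H2-D1*, *B2m*, *Tap1* and *Nlrc5*. All 10 were measured well above the filter on low counts that left 13961 genes for testing. The RNA came from kidney tissue of 32 male C57BL/6 mice. All mice belonged to the iKspCre-Pkd1del model, which carries a tamoxifen-inducible Cre driven by a promoter of the kidney tubule epithelium and LoxP sites around exons 2 to 11 of *Pkd1*. The 8 wildtype mice received no tamoxifen and are labelled with an age of 109 days, while the protocol in the labels has all mice collected on day 95. The 12 PKD mice received 150 mg/kg tamoxifen by gavage on days 18 and 19, stayed on normal chow and were collected at 95 days. The 12 PKD + Salsalate mice were treated the same way and ate chow with 2.5 g/kg salsalate, a prodrug of salicylate, for 2 weeks from day 81 until collection at 95 days. The deletion and the tamoxifen therefore cannot be told apart in any comparison with wildtype, nor can the age if the label of 109 days holds. Per the study, the 12 mice of either PKD group were picked from a larger number for a similar, mild disease, judged by kidney weight relative to body weight. The comparison of the PKD groups therefore asks what salsalate changes in mildly cystic kidneys matched on that measure.

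MHC class II molecules present peptides from material taken up by a cell to CD4+ T cells, and are made mainly by macrophages, dendritic cells and B cells. *H2-Aa* and *H2-Ab1* encode the chains of the I-A molecule and *H2-Eb1* the beta chain of I-E. *Cd74* encodes the invariant chain, which holds the peptide groove until the peptide is loaded, and *Ciita* encodes the transactivator on which class II transcription depends. MHC class I molecules present peptides from inside the cell to CD8+ T cells and occur on almost all nucleated cells. *H2-K1* and *H2-D1* encode class I heavy chains, *B2m* their light chain, *Tap1* a subunit of the peptide transporter, and *Nlrc5* the class I transactivator. Interferon gamma is a well known inducer of both transactivators.

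The genes lie on several chromosomes of GRCm39, with positions from GENCODE release 39. In the MHC on chromosome 17 lie *H2-K1* (ENSMUSG00000061232, 34214987 to 34219321, minus strand), *Tap1* (ENSMUSG00000037321, 34405996 to 34416199, plus), *H2-Ab1* (ENSMUSG00000073421, 34476663 to 34488393, plus), *H2-Aa* (ENSMUSG00000036594, 34493404 to 34506798, minus), *H2-Eb1* (ENSMUSG00000060586, 34504236 to 34535648, plus) and *H2-D1* (ENSMUSG00000073411, 35481691 to 35486475, plus). The spans of *H2-Aa* and *H2-Eb1* overlap on opposite strands, and reads were counted by strand. *B2m* (ENSMUSG00000060802) lies on chromosome 2 at 121977957 to 121983594, *Ciita* (ENSMUSG00000022504) on chromosome 16 at 10297923 to 10347694 and *Nlrc5* (ENSMUSG00000074151) on chromosome 8 at 95160984 to 95253900, all on the plus strand. *Cd74* has the identifier ENSMUSG00000024610.

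Promoters of class I and class II genes share a module of short motifs, the X and Y boxes, that the factors recruiting CIITA and NLRC5 bind. The stretches that hold these motifs are shown as a description of the genes. The part of the motifs in the levels measured here was not tested. RefSeq promoter sequences (250 bases before to 50 after the start, table of GRCm38.p6, located by exact match in GRCm39) were given for 6 of the 10 genes, and not for *H2-Ab1*, *Cd74*, *Ciita* and *Nlrc5*. Both strands were searched for GCAAC (core of the X1 box), TGACG (core of the X2 box), ATTGG (inverted CCAAT, the Y box), GGGATTCCC (a kappa B site) and GAAANNGAAA (an interferon response element). Capitals mark the motifs on the strand shown, in the direction of transcription. In *H2-Aa* the TGACG overlaps by 2 bases with its own reverse complement (CGTCA), which is left in lower case, and no other motifs overlapped in the stretches shown.

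H2-Aa, chr17:34506831-34506888, minus strand: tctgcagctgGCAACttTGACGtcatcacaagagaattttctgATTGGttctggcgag
H2-Eb1, chr17:34524740-34524796, plus strand: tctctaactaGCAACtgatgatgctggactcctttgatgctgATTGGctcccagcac
H2-K1, chr17:34219323-34219441, minus strand: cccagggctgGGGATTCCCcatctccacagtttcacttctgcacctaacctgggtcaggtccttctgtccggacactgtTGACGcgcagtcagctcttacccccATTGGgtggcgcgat
H2-D1, chr17:35481890-35482008, plus strand: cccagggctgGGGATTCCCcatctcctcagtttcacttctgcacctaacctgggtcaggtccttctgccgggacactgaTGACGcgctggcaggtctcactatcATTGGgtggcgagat
B2m, chr2:121978019-121978129, plus strand: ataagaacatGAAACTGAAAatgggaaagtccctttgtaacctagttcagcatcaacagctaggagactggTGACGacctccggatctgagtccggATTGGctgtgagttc

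GCAAC stood 28 bases before ATTGG in *H2-Aa* and 27 bases before it in *H2-Eb1*. TGACG stood 21 bases before ATTGG in *H2-Aa* and 20 bases before it in *H2-K1*, *H2-D1* and *B2m*. Of all 32851 promoters in the table, 1.76% held GCAAC and then ATTGG within 40 bases, and 1.12% held TGACG and then ATTGG. Singly, GCAAC was found in 35.2%, TGACG in 20.8% and ATTGG in 37.4% of promoters. GGGATTCCC, which the *H2-K1* and *H2-D1* promoters share, was found in 0.353%, and GAAANNGAAA, found here in *B2m*, in 3.44%. The *Tap1* window held neither spaced pair. These are matches of letters and not measurements of binding.

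Reads counted on genes ranged from 11278382 to 28290874 per wildtype kidney, from 11193136 to 47213530 per PKD kidney and from 14088385 to 109807664 per PKD + Salsalate kidney. Of the wildtype libraries, 5 have names ending in R (replicates 1 to 5) and 3 do not (replicates 6 to 8), while no library of the PKD groups has this ending. What R stands for is not stated in the sources used here, so for the 10 genes the comparisons with wildtype were also made against each set of wildtype libraries, and for the other lists the calls that this split changed are named or counted. Levels are CPM, counts per 1000000 counts on genes, with library sizes adjusted by the trimmed mean of M-values (TMM). Tests are edgeR's quasi-likelihood test with all 3 groups in 1 fit, adjusted by Benjamini-Hochberg over the 13961 genes, with a threshold of 0.05. Errors are SD over the 8 wildtype, 12 PKD and 12 PKD + Salsalate kidneys. The targeted gene *Pkd1* was measured at 68.7 ± 10.9 CPM in wildtype, at 92.1 ± 15.1 CPM in PKD and at 92.7 ± 15.1 CPM in PKD + Salsalate. Its reads were summed with those of exons outside the deletion, so this value does not check the deletion.

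In PKD kidneys 9 of the 10 genes were higher than in wildtype, and *Tap1* did not pass the test. Over all tested genes, 24.1% were called higher in this comparison, and the median log2 fold change was -0.00908 over all genes and 0.72 over the 10. The 4 class II structural genes had log2 fold changes of 1.12 to 1.34, *Ciita* 0.82, and the 4 called class I genes 0.55 to 0.63. In bulk tissue, more cells of a type and more RNA per cell cannot be told apart.

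Among the I-A chains, *H2-Aa* ran from 63.9 CPM over a median of 95.2 to 139 CPM in wildtype (mean 100.0 ± 24.1), from 177 over 229 to 279 CPM in PKD (224 ± 33.0), and from 147 over 185 to 269 CPM in PKD + Salsalate (191 ± 37.7). Every kidney of both PKD groups lay above every wildtype kidney. The log2 fold change of PKD against wildtype was 1.17 (SE 0.125, adjusted p = 3.29e-09). *H2-Ab1* ran from 73.4 over 113 to 187 CPM in wildtype (114 ± 35.6), from 194 over 291 to 382 CPM in PKD (288 ± 53.6), and from 183 over 241 to 330 CPM in PKD + Salsalate (244 ± 50.9). The PKD kidneys were again all above the wildtype kidneys, and 10 of the 12 PKD + Salsalate kidneys were. For *H2-Ab1* the log2 fold change in PKD was 1.34 (SE 0.150, adjusted p = 6.89e-09).

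*H2-Eb1*, the I-E beta chain, ran from 64.6 over 109 to 155 CPM in wildtype (114 ± 32.2), from 190 over 253 to 319 CPM in PKD (248 ± 39.3), and from 169 over 220 to 294 CPM in PKD + Salsalate (221 ± 43.3). Neither PKD group overlapped with wildtype, and *H2-Eb1* rose by a log2 fold change of 1.12 in PKD (SE 0.138, adjusted p = 4.81e-08). Its partner chain gene *H2-Ea* was counted at 0 in all 32 kidneys, which allows up to 0.268 CPM in the shallowest library (3 counts, counting error only). C57BL/6 mice are known to carry a deletion at the *H2-Ea* promoter and to make no I-E molecule, so the *H2-Eb1* transcript was measured here without its partner.

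*Cd74*, the invariant chain, was the most abundant class II transcript. It ran from 160 over 208 to 266 CPM in wildtype (211 ± 42.6), from 360 over 478 to 652 CPM in PKD (484 ± 86.5), and from 331 over 421 to 578 CPM in PKD + Salsalate (426 ± 80.3). No kidney of either PKD group reached down to the wildtype range, with a log2 fold change in PKD of 1.20 (SE 0.123, adjusted p = 1.22e-09). *Ciita*, the class II transactivator, was measured at a far lower level, from 8.95 over 13.4 to 22.1 CPM in wildtype (13.9 ± 4.69), from 15.7 over 24.4 to 30.8 CPM in PKD (24.5 ± 4.28), and from 12.4 over 19.9 to 25.7 CPM in PKD + Salsalate (19.6 ± 4.24). The groups overlapped, with 8 of 12 PKD kidneys above the highest wildtype kidney, and the log2 fold change was 0.82 (SE 0.154, adjusted p = 5.13e-05). In all, 4 of the 10 genes had every PKD kidney above every wildtype kidney, *H2-Aa*, *H2-Ab1*, *H2-Eb1* and *Cd74*, where 5.21% of all tested genes did. For PKD + Salsalate against wildtype it was 3 of the 10, without *H2-Ab1*, where 4.46% of all tested genes did.

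The class I heavy chains changed less. *H2-K1* ran from 216 over 295 to 431 CPM in wildtype (293 ± 65.3), from 353 over 458 to 630 CPM in PKD (453 ± 74.6), and from 307 over 383 to 499 CPM in PKD + Salsalate (391 ± 52.9). *H2-D1* ran from 240 over 320 to 425 CPM in wildtype (320 ± 53.7), from 378 over 477 to 583 CPM in PKD (474 ± 55.8), and from 337 over 416 to 495 CPM in PKD + Salsalate (416 ± 51.1). Above the highest wildtype kidney, replicate 8 for both genes, lay 7 of 12 PKD kidneys for *H2-K1* and 9 of 12 for *H2-D1*. The log2 fold changes in PKD were 0.63 for *H2-K1* (SE 0.108, adjusted p = 1.47e-05) and 0.57 for *H2-D1* (SE 0.0886, adjusted p = 3.13e-06). Class I genes are near-identical in stretches and only reads with 1 place in the genome were counted, so the split of reads between *H2-K1*, *H2-D1* and the H2-Q and H2-T genes is uncertain.

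*B2m*, the light chain shared by all class I molecules, ran from 189 over 253 to 348 CPM in wildtype (256 ± 57.1), from 315 over 380 to 451 CPM in PKD (377 ± 35.9), and from 261 over 333 to 374 CPM in PKD + Salsalate (319 ± 31.9). In PKD 9 of 12 kidneys exceeded every wildtype kidney, and in PKD + Salsalate 1 of 12 did. The log2 fold change in PKD was 0.56 (SE 0.0916, adjusted p = 6.65e-06). *Nlrc5*, the class I transactivator, ran from 5.50 over 10.8 to 16.8 CPM in wildtype (10.5 ± 3.87), from 11.3 over 15.1 to 19.5 CPM in PKD (15.3 ± 2.82), and from 6.67 over 12.9 to 15.5 CPM in PKD + Salsalate (12.4 ± 2.58). Only 4 of 12 PKD kidneys lay above the wildtype range, yet the gene passed the test at 0.55 (SE 0.165, adjusted p = 0.00650). *Tap1*, the transporter subunit, ran from 20.2 over 30.3 to 36.6 CPM in wildtype (29.6 ± 6.39), from 25.4 over 33.3 to 48.6 CPM in PKD (34.9 ± 6.61), and from 20.6 over 31.8 to 37.4 CPM in PKD + Salsalate (30.4 ± 4.77). Its groups overlapped widely, and its log2 fold change of 0.24 in PKD (adjusted p = 0.0897) had a 95% interval of 0.00047 to 0.49.

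**Figure D1:**
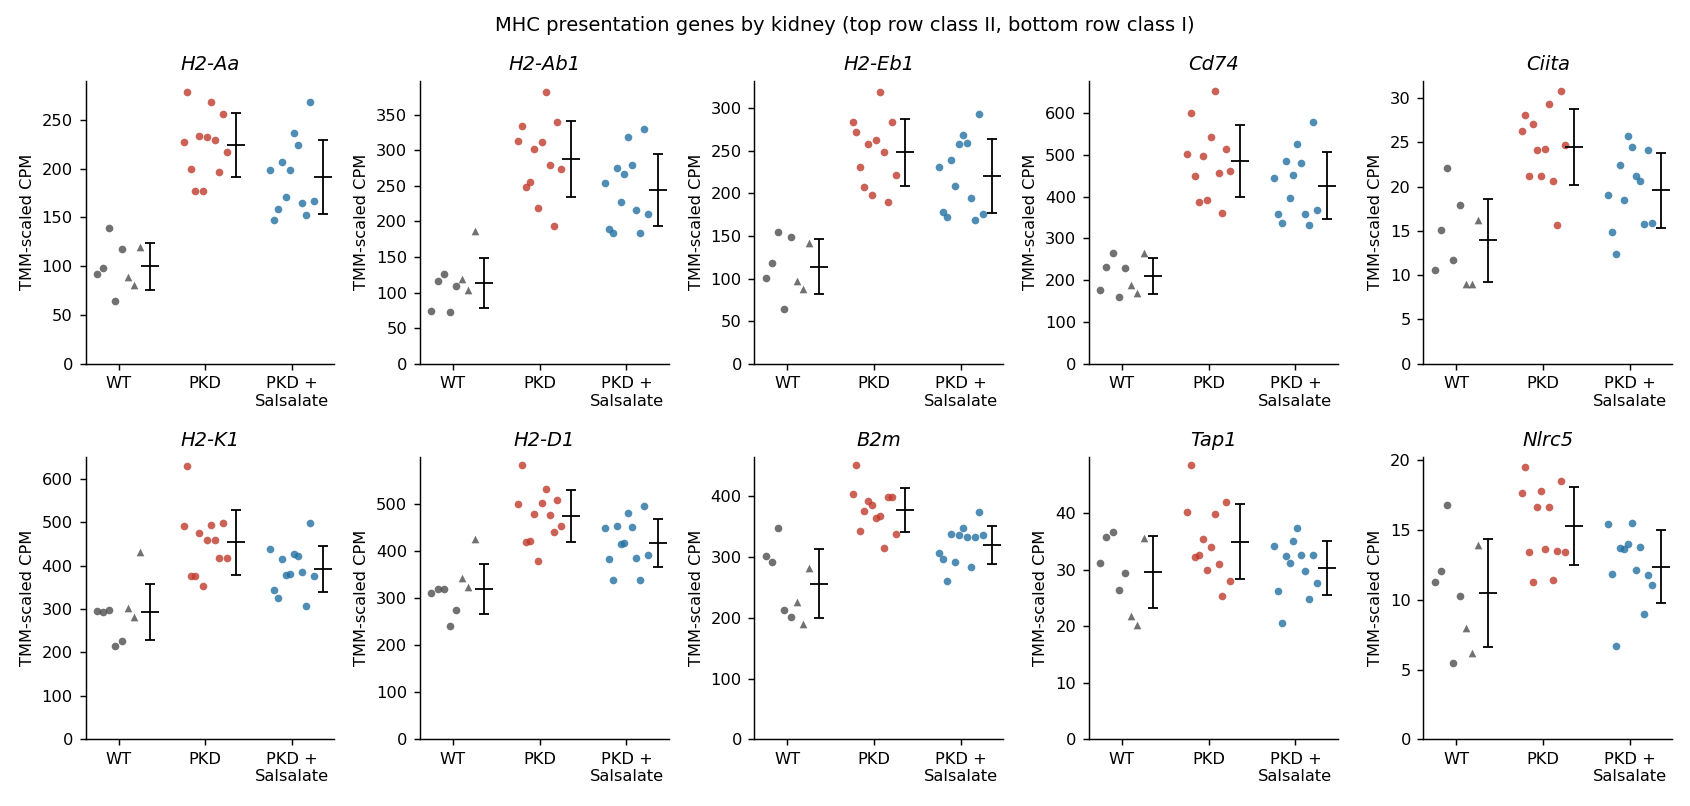
Level of each gene in every kidney (TMM-scaled CPM, axes from 0), by group; bars show the mean ± SD, and triangles mark the 3 wildtype libraries without the ending R. For H2-Aa, H2-Eb1 and Cd74 every kidney of both PKD groups is above the 8 wildtype kidneys, while the groups overlap for Tap1 and Nlrc5.

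With the wildtype libraries split by this ending, the 9 calls in PKD held against either set. The log2 fold change of *H2-K1* was 0.77 against the R libraries and 0.41 against the remaining 3, and that of *H2-D1* 0.69 and 0.37. *H2-Ab1* gave 1.53 and 1.06, and *Ciita* 0.66 and 1.08. *Tap1* passed only against the 3 libraries without the ending, at 0.42 (adjusted p = 0.0474).

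Per kilobase of annotated exon, the order of the levels in PKD was *Cd74* (193 CPM per kb), *B2m* (179), *H2-D1* (158), *H2-K1* (142), *H2-Ab1* (112), *H2-Eb1* (95.6), *H2-Aa* (52.3), *Tap1* (5.82), *Ciita* (2.21) and *Nlrc5* (1.80). In wildtype *B2m* (121.5 CPM per kb), *H2-D1* (107) and *H2-K1* (92.0) stood above *Cd74* (83.7). The transactivators and the transporter subunit were thus the lowest of the 10 genes in both groups. Exon lengths are those of all annotated transcripts together, which understates a gene whose long transcripts are rare.

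Within a kidney some of the genes kept nearly fixed proportions. The ratio of *Cd74* to *H2-Aa*, per kilobase, was 3.64 ± 0.366 in wildtype, 3.68 ± 0.273 in PKD and 3.81 ± 0.160 in PKD + Salsalate. The ratio of *H2-Eb1* to *H2-Aa* was 1.87 ± 0.136, 1.83 ± 0.140 and 1.91 ± 0.114. The ratio of *H2-Ab1* to *H2-Aa* was less steady, at 1.91 ± 0.425, 2.14 ± 0.203 and 2.13 ± 0.101. The ratio of *H2-D1* to *H2-K1* was 1.17 ± 0.0729, 1.12 ± 0.0586 and 1.13 ± 0.0477. Between the classes the proportion was not the same in all groups. The ratio of *H2-Aa* to *H2-K1* ran from 0.206 over 0.225 to 0.385 in wildtype, from 0.329 over 0.372 to 0.403 in PKD, and from 0.318 over 0.365 to 0.412 in PKD + Salsalate. The wildtype range reached into that of both PKD groups. These ratios were chosen after fold changes had been seen and were not tested.

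PKD + Salsalate kidneys were also higher than wildtype for 8 of the 10 genes, where 21.8% of all tested genes were called higher. The class II genes had log2 fold changes of 0.93 for *H2-Aa* (adjusted p = 2.81e-07), 1.10 for *H2-Ab1* (adjusted p = 3.26e-07), 0.95 for *H2-Eb1* (adjusted p = 1.13e-06), 1.02 for *Cd74* (adjusted p = 4.56e-08) and 0.49 for *Ciita* (adjusted p = 0.0096). The class I genes were closer to wildtype, at 0.42 for *H2-K1* (adjusted p = 0.00212), 0.38 for *H2-D1* (adjusted p = 0.000719) and 0.32 for *B2m* (adjusted p = 0.00467). *Nlrc5* at 0.23 (adjusted p = 0.258) and *Tap1* at 0.035 (adjusted p = 0.836) did not pass. Against the wildtype libraries ending in R, *Ciita* did not pass either (0.33, adjusted p = 0.0834). Against the other wildtype libraries, *H2-K1* (0.20, adjusted p = 0.269) and *H2-D1* (0.19, adjusted p = 0.197) did not. This comparison shares its wildtype kidneys with that of PKD and its PKD + Salsalate kidneys with the next.

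With salsalate, none of the 10 genes passed edgeR's quasi-likelihood test against PKD, and all 10 had a log2 fold change below 0. Over all genes 0.580% were called in either direction. At an unadjusted p under 0.05 there were 6 of the 10, *H2-Aa*, *Ciita*, *H2-K1*, *H2-D1*, *B2m* and *Nlrc5*, against 10.3% of all genes. The median log2 fold change was -0.22 over the 10 and -0.0101 over all genes. The Wald test of DESeq2 and limma-voom also called 0 of the 10.

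Among the 10 genes the largest differences by size were those of both transactivators, with log2 fold changes of -0.33 for *Ciita* (95% interval -0.60 to -0.060, adjusted p = 0.318) and -0.32 for *Nlrc5* (-0.61 to -0.027, adjusted p = 0.417). *B2m* had the lowest p, at -0.24 (-0.40 to -0.076, adjusted p = 0.184), and every PKD + Salsalate kidney lay below the PKD median for this gene. In a fit of only the PKD and PKD + Salsalate kidneys *B2m* passed, with an adjusted p of 0.0348. *H2-K1* was at -0.21 (adjusted p = 0.412), with 11 of 12 PKD + Salsalate kidneys below the PKD median, and *H2-D1* at -0.19 (adjusted p = 0.341), with 10 of 12. *Tap1* was at -0.21 (adjusted p = 0.511). Of the class II structural genes, *H2-Aa* was at -0.23 (-0.45 to -0.013, adjusted p = 0.442), *H2-Ab1* at -0.24 (adjusted p = 0.557), *H2-Eb1* at -0.17 (adjusted p = 0.703) and *Cd74* at -0.19 (adjusted p = 0.599). For these 4 genes between 8 and 10 of the 12 PKD + Salsalate kidneys lay below the PKD median, and the groups overlapped. Several of the 10 genes varied together between kidneys, so that their common direction is not a set of separate observations.

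**Figure D2:**
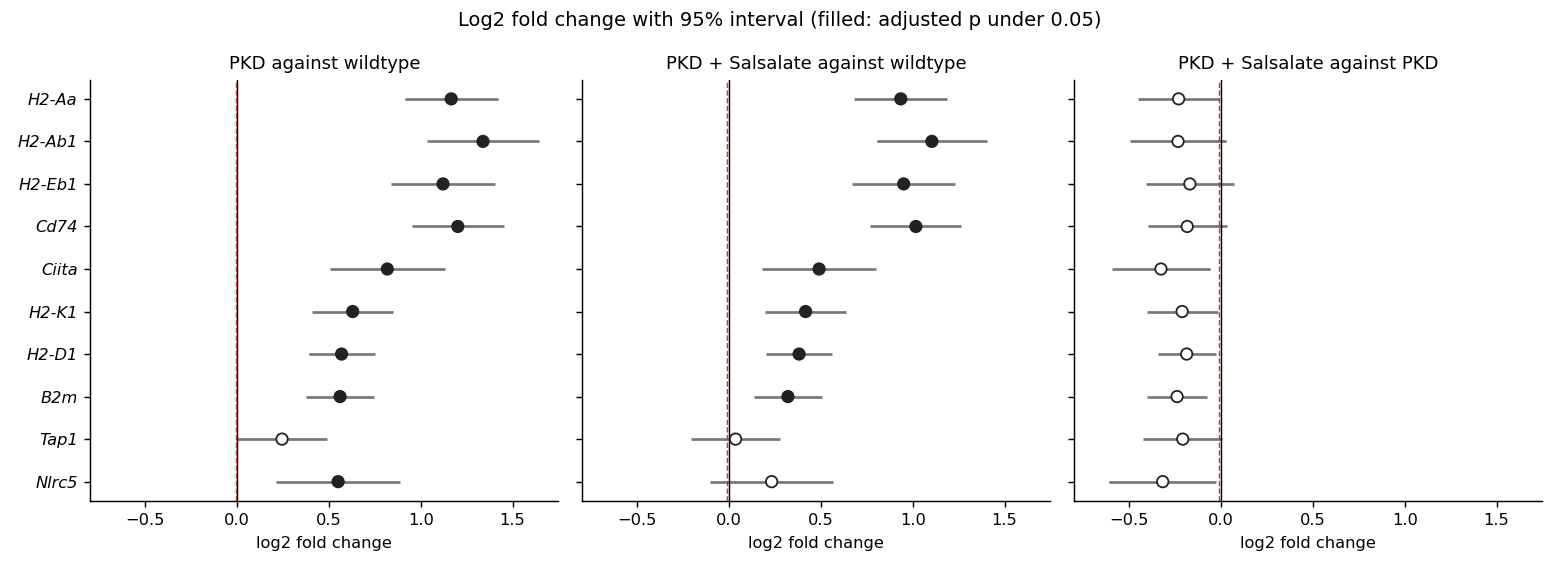
Log2 fold change (points) with 95% interval (lines) of each gene in the 3 comparisons; filled points have an adjusted p under 0.05, and the dashed line marks the median of all genes. Of the 10 genes, 9 are filled for PKD against wildtype, 8 for PKD + Salsalate against wildtype and 0 for PKD + Salsalate against PKD, where all points lie below 0.

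Other genes of the class II pathway were read from a list of 19, of which 16 were tested and 8 were higher in PKD than in wildtype, with none lower. Over all tested genes 24.1% were called higher with all kidneys. This share is to be set beside the counts of higher genes in that fit, here and in the lists that follow. For the fits with part of the wildtype libraries the share is not given. The median of the list was 0.31. The largest changes were those of *H2-DMb2* at 2.08 (SE 0.238, adjusted p = 1.14e-08) and *H2-DMa* at 1.13 (adjusted p = 2.99e-08), which encode chains of the peptide-loading molecule H2-M, and of *Ctss* at 1.76 (adjusted p = 5.87e-09), cathepsin S, the protease that trims the invariant chain. *H2-DMb1*, *Ifi30*, *Rfx5*, *Ctsl* and *Lgmn* were the other genes called. The X- and Y-box factor genes *Rfxap*, *Rfxank*, *Creb1*, *Nfya*, *Nfyb* and *Nfyc* ran from -0.28 to 0.12 and did not pass. Against the R libraries *Creb1* was lower (-0.54, adjusted p = 7.1e-05) and *Rfxap* higher (0.20, adjusted p = 0.0144), while with only replicates 6 to 8 *Creb1* was at 0.27 (adjusted p = 0.0563). With only wildtype replicates 6 to 8 as controls, 5 genes of this list passed, and *Rfx5*, *Ctsl* and *Lgmn* did not.

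*H2-DMb2* is 1 of 2 MHC genes on the lists that the study selected on these samples, which is therefore no independent evidence of its direction. It ran from 0.967 over 1.43 to 2.58 CPM in wildtype, from 3.71 over 6.98 to 12.4 CPM in PKD and from 2.73 over 4.38 to 7.95 CPM in PKD + Salsalate. Its wildtype median lay below the filter on low values, which the gene passed through the PKD groups. All kidneys of both PKD groups were above wildtype, and the PKD groups overlapped. Between them the log2 fold change was -0.69 (SE 0.185, adjusted p = 0.0769), and without PKD replicate 10 it was -0.74 (adjusted p = 0.0457). The gene also passed in a fit of only the 2 PKD groups and in the fit that kept only wildtype replicates 6 to 8.

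The other class I pathway list held 12 genes, all tested, of which 6 were higher in PKD and none lower, with a median of 0.22. These were *Erap1*, the peptidase that trims peptides for class I (0.50, adjusted p = 0.000183), the loading-complex genes *Pdia3* (0.47, adjusted p = 0.00560), *Tapbpl* (0.45, adjusted p = 1.69e-05) and *Tapbp*, the transporter subunit gene *Tap2*, and *Canx*. The immunoproteasome genes *Psmb8*, *Psmb9* and *Psmb10* were at 0.066, 0.082 and 0.16, and the proteasome activator genes *Psme1* and *Psme2* at 0.044 and 0.037, and none of the 5 passed. The choice of wildtype libraries changed most of these calls. With only wildtype replicates 6 to 8 as controls, *Tapbpl* passed at 0.26 (adjusted p = 0.0324), and *Erap1* (0.35, adjusted p = 0.0511), *Pdia3* (0.13), *Tapbp* (0.089), *Tap2* (0.16) and *Canx* (-0.13) did not. All 5 proteasome genes passed there, *Psmb8* at 0.70 (adjusted p = 0.000517), *Psmb10* at 0.60, *Psmb9* at 0.51, *Psme2* at 0.30 and *Psme1* at 0.21 (adjusted p = 0.0202). Against the R libraries the same 5 genes ran from -0.23 to -0.055 and did not pass.

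Of 17 nonclassical and class I-like genes 14 were tested and 5 were higher in PKD, with a median of 0.12. Without PKD replicate 10 it was 4 of this list, where 24.1% of all tested genes were called higher with all kidneys. *Azgp1*, which encodes a class I-like secreted protein, was at 0.50 (adjusted p = 0.00601) and *H2-M3*, which presents formylated peptides, at 0.45 (adjusted p = 0.00779), beside *H2-Q4* and *H2-T23*. With only wildtype replicates 6 to 8, *Azgp1* (0.13, adjusted p = 0.552) and *H2-T23* (0.027, adjusted p = 0.837) did not pass and *H2-T10* did (0.63, adjusted p = 0.0017), and against the R libraries *H2-Q4* did not (0.25, adjusted p = 0.0550). *H2-Q10*, a secreted class I gene known for its expression in liver and the other MHC gene that the study selected, had a log2 fold change of 3.54 (adjusted p = 0.00573) that rested on 1 kidney. PKD replicate 10 was at 213 CPM, and the PKD median was 1.34 CPM. Without that kidney the log2 fold change was -0.25 (adjusted p = 0.391). In the same kidney 8 liver transcripts summed to 3850 CPM, where no other kidney exceeded 189 CPM, and the liver gene *Alb* was at 1930 CPM. The part of these transcripts in other values of that kidney was not tested, and the 9 calls among the 10 genes held without it.

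**Figure D3:**
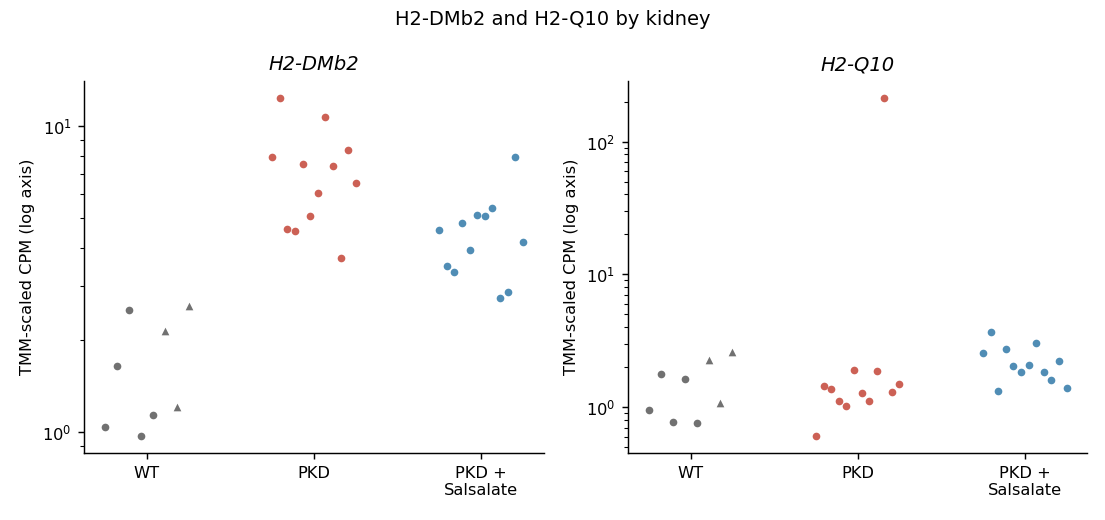
H2-DMb2 and H2-Q10 in every kidney (TMM-scaled CPM, log axis), with triangles for the wildtype libraries without the ending R. H2-DMb2 is higher in all kidneys of both PKD groups than in wildtype, while for H2-Q10 a single PKD kidney at 213 CPM stands apart.

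Of 11 interferon gamma signalling genes 10 were tested and 5 were higher in PKD, with a median of 0.24. *Socs3*, a feedback inhibitor of cytokine signalling, rose by 2.42 (SE 0.195, adjusted p = 7.17e-12), and the receptor genes *Ifngr1* and *Ifngr2* by 0.71 (adjusted p = 1.55e-07) and 0.70 (adjusted p = 2.63e-07). The transcription factor genes *Irf8* and *Irf1* were the others. *Ifng* itself was counted 0 to 5 times per kidney and was not tested. Of 6 co-stimulation and checkpoint genes 4 were tested, of which *Icosl* (0.53, adjusted p = 3.69e-06) and *Cd40* (0.32, adjusted p = 0.0196) were higher and *Cd274*, which encodes PD-L1, was lower (-0.39, adjusted p = 0.0167). Against 1 set of wildtype libraries each, *Cd40* (0.15, ending in R) and *Cd274* (-0.24, not ending in R) did not pass. The interferon gamma signalling genes that passed numbered 4 higher and 1 lower against the R libraries and 6 higher against the remaining 3.

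**Figure D4:**
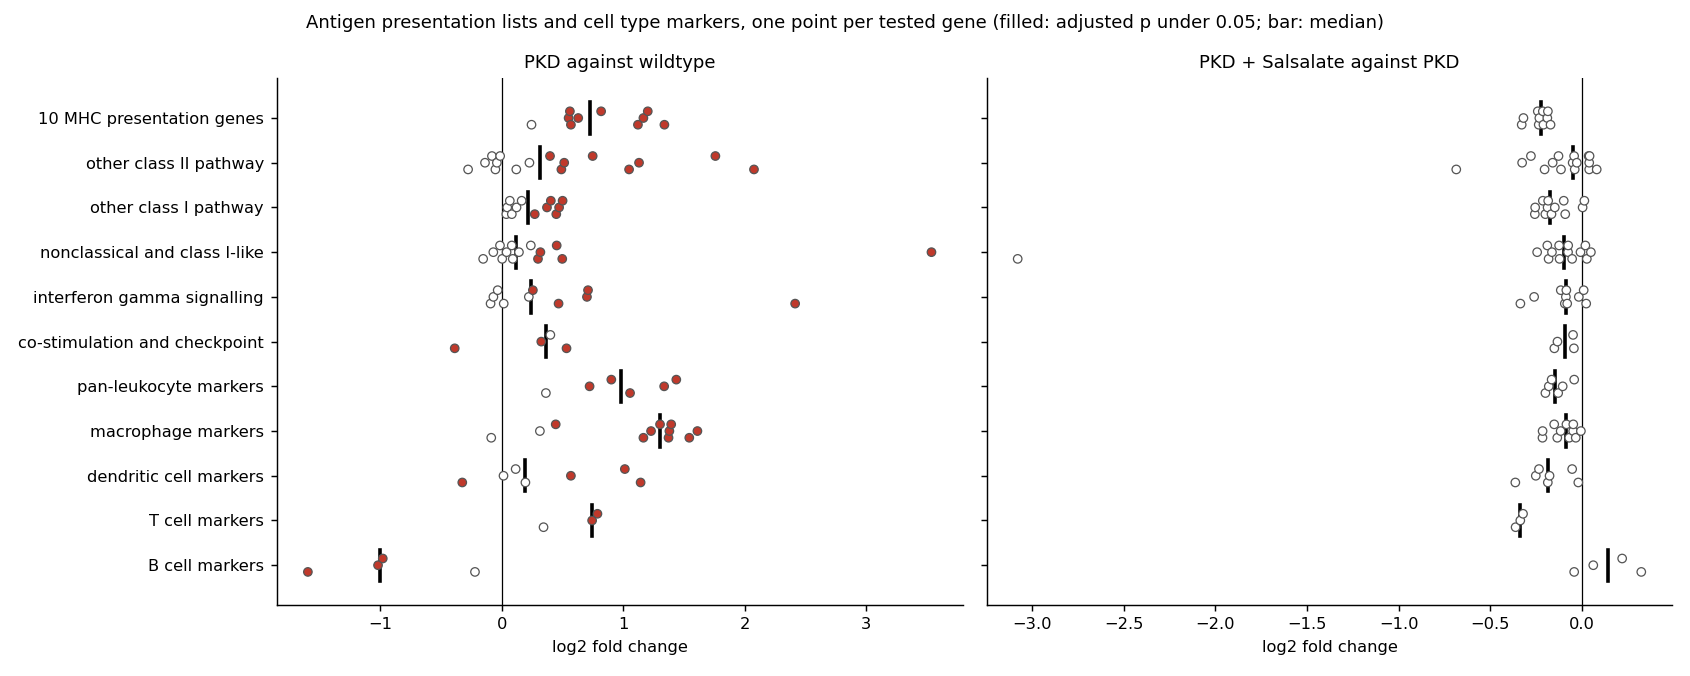
Log2 fold change of every tested gene of the presentation lists and leukocyte marker lists, for PKD against wildtype (left) and PKD + Salsalate against PKD (right); filled points have an adjusted p under 0.05 and bars mark list medians. On the left 9 of 10 MHC presentation genes and 9 of 11 macrophage markers are filled, and on the right no point is filled.

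Macrophage and pan-leukocyte markers were higher in PKD along with the 10 genes, while those of dendritic cells were mixed. Of 11 macrophage markers 9 were higher in PKD than in wildtype and none lower, with a median of 1.30, and their summed level was 170.5 to 247 CPM in wildtype, 327 to 471 CPM in PKD and 286 to 510 CPM in PKD + Salsalate. The largest changes among them were *Fcgr1* (1.61), *Mrc1* (1.54) and *Adgre1* (1.40), and the most abundant was *Csf1r* at 80.0 ± 12.6 CPM in wildtype and 109 ± 7.00 CPM in PKD. Of 6 pan-leukocyte markers 5 were higher, *Cd53* (1.44), *Ptprc* (1.34) and *Itgb2* (1.06) the most, with sums of 60.6 to 146 CPM in wildtype, 142 to 208 CPM in PKD and 114 to 221 CPM in PKD + Salsalate. Of 10 dendritic cell markers 7 were tested, of which *Cd209a* (1.14), *Itgax* (1.01) and *Flt3* (0.57) were higher and *Itgae* (-0.33) was lower. *Batf3* (0.19), *Zbtb46* (0.11) and *Clec9a* (0.014) did not pass, and the sums of 23.0 to 54.5, 38.1 to 55.6 and 31.2 to 55.2 CPM overlapped. *Xcr1* and *Siglech*, of 2 dendritic cell types, were at most 1.49 and 2.65 CPM in any kidney. *Cd209a* was at most 1.52 CPM in any wildtype kidney and passed the filter on low values through the PKD groups. The macrophage marker *Fcgr1*, at a mean of 1.51 CPM in wildtype and 4.61 CPM in PKD, passed it in the same way. *Flt3* averaged 1.27 CPM in wildtype and 1.86 CPM in PKD, close to that filter. Against the R libraries 9 macrophage, 4 pan-leukocyte and 2 dendritic cell markers were higher, and against the remaining wildtype libraries 10, 6 and 4. The share of all tested genes called higher in these fits is not given. The part of these cells in the levels of the 10 genes was not tested.

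Lymphocyte markers were low throughout. The 8 T cell markers summed to 5.46 to 15.9 CPM in wildtype, 9.86 to 24.1 CPM in PKD and 9.34 to 17.0 CPM in PKD + Salsalate, and of 3 tested genes *Cd8a* (0.79, adjusted p = 0.00134) and *Cd4* (0.74, adjusted p = 0.00856) were higher in PKD. With only wildtype replicates 6 to 8, *Cd4* (0.58, adjusted p = 0.128) did not pass and *Lck* did (0.79, adjusted p = 0.00783). *Cd3d* and *Cd3e* were at most 1.72 and 2.40 CPM in any kidney. *Cd4* averaged 1.30 CPM in wildtype and 2.20 CPM in PKD, close to the filter on low values. *Cd8a* averaged 1.61 CPM in wildtype and 2.80 CPM in PKD, and passed that filter through the PKD groups. The 8 B cell markers, of a cell type that also carries class II, summed to 8.95 to 22.9 CPM in wildtype (median 14.5), 5.94 to 9.87 CPM in PKD (8.28) and 5.57 to 14.7 CPM in PKD + Salsalate (8.49). The wildtype median was 16.0 CPM in the R libraries and 9.76 CPM in the remaining 3, whose range of 8.95 to 13.4 CPM overlapped with that of PKD. *Ms4a1* and *Blk* were at most 1.04 CPM in any kidney. *Cr2* (-1.60) and *Pax5* (-0.98) had negative log2 fold changes, but both genes passed the filter on low values through the wildtype kidneys and were no longer tested against either set of wildtype libraries alone.

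Relative to *Ptprc*, which encodes the pan-leukocyte protein CD45, neither *H2-Aa* nor *H2-K1* had a higher mean in PKD than in wildtype. The ratio of *H2-Aa* to *Ptprc* per kilobase was 28.5 ± 4.23 in wildtype, 24.6 ± 3.05 in PKD and 23.7 ± 2.89 in PKD + Salsalate. The ratio of *H2-K1* to *Ptprc* was 115.5 ± 28.6, 67.2 ± 10.8 and 65.9 ± 7.37. The groups overlapped for both ratios, and the differences were not tested. The direction of such a ratio depends on the marker chosen. *Ptprc* rose by a log2 fold change of 1.34 in PKD and *Cd53* by 1.44, both more than *H2-Aa* (1.17). The other pan-leukocyte markers rose less than *H2-Aa*, *Itgb2* by 1.06, *Laptm5* by 0.90, *Tyrobp* by 0.72 and *Coro1a*, which did not pass, by 0.36. All 6 tubular injury markers were higher in PKD as well, against either set of wildtype libraries, with summed levels of 235 to 504 CPM in wildtype, 1216 to 2683 CPM in PKD and 1047 to 3517 CPM in PKD + Salsalate. *Havcr1* (5.90), *Lcn2* (4.68) and *Krt20* (4.57) had the largest log2 fold changes of them, and *Spp1* was the most abundant. *Havcr1* and *Krt20* were at most 1.78 and 0.89 CPM in any wildtype kidney and passed the filter on low values through the PKD groups. *Lcn2*, at a mean of 1.70 CPM in wildtype, passed it in the same way.

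In PKD + Salsalate against PKD 0 of the 87 tested genes of these presentation and leukocyte lists passed edgeR's test. An unadjusted p under 0.05 was found for 12 of the 87, where 10.3% of all tested genes had one. The Wald test of DESeq2 called *H2-DMb2* and *H2-Q10*, and limma-voom *H2-DMb2*. The list medians were -0.046 for the other class II genes, -0.17 for the other class I genes, -0.098 for the nonclassical genes and -0.086 for interferon gamma signalling. The macrophage markers had a median of -0.084, with all 11 genes below 0 and 0 of them at an unadjusted p under 0.05, and the pan-leukocyte markers a median of -0.15. The medians were -0.19 for the 7 tested dendritic cell markers, -0.34 for the 3 tested T cell markers and -0.37 for the 6 tubular injury markers, all of whose genes lay below 0. Those of the B cell, kidney tubule and endothelial markers were 0.14, 0.059 and -0.027. Of all the marker lists, the only called gene was *Alb* of the liver list (-5.96, adjusted p = 0.0146), the transcript that stood at 1930 CPM in PKD replicate 10.

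Across the 12 kidneys of each PKD group, pairs of genes were compared on log2 CPM by permutation tests of 100000 permutations, adjusted over the 14 relations tested, of which 12 (6 pairs in each group) are given. *H2-Aa* followed *Cd74* closely, with r = 0.907 and rho = 0.902 in PKD (permutation, adjusted p = 0.000455 and 0.000476) and r = 0.976 and rho = 0.965 in PKD + Salsalate (permutation, adjusted p = 7e-05 and 0.00028). *H2-K1* followed *H2-Aa* across the classes, with r = 0.925 and rho = 0.923 in PKD (permutation, adjusted p = 7e-05 and 0.000476) and r = 0.899 and rho = 0.895 in PKD + Salsalate (permutation, adjusted p = 0.00042 and 0.000476). Without the 2 kidneys farthest from the median these values of r stayed between 0.838 and 0.963. The unadjusted p of 1e-05 behind the values of 7e-05 is the smallest these permutations can give.

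The transactivators tracked their targets less closely. *H2-Aa* with *Ciita* gave r = 0.570 and rho = 0.587 in PKD (permutation, adjusted p = 0.0634 and 0.0566) and r = 0.795 and rho = 0.811 in PKD + Salsalate (permutation, adjusted p = 0.00511 and 0.00488). *H2-K1* with *Nlrc5* gave r = 0.545 and rho = 0.594 in PKD (permutation, adjusted p = 0.0747 and 0.0566). In PKD + Salsalate it gave r = 0.635 and rho = 0.622 (permutation, adjusted p = 0.0378 and 0.0566), which fell to r = 0.163 without the 2 farthest kidneys and so rested on them. Differences between these values of r were not tested.

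*H2-Aa* was also set beside myeloid markers. With *Csf1r*, the macrophage growth factor receptor, r was 0.245 and rho 0.217 in PKD (permutation, adjusted p = 0.440 and 0.500), and 0.816 and 0.902 in PKD + Salsalate (permutation, adjusted p = 0.00431 and 0.000476). *Csf1r* spanned 98.6 to 121.5 CPM in PKD and 86.3 to 124 CPM in PKD + Salsalate, and the difference of r was not tested. Without TMM factors r was 0.537 in PKD, and without the 2 farthest kidneys it was -0.0411 in PKD and 0.743 in PKD + Salsalate. With *Flt3*, a receptor of dendritic cells, r was 0.705 and rho 0.685 in PKD (permutation, adjusted p = 0.0216 and 0.0361), and 0.621 and 0.615 in PKD + Salsalate (permutation, adjusted p = 0.0378 and 0.0566). Without the 2 farthest kidneys these values of r were 0.581 and 0.430.

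**Figure D5:**
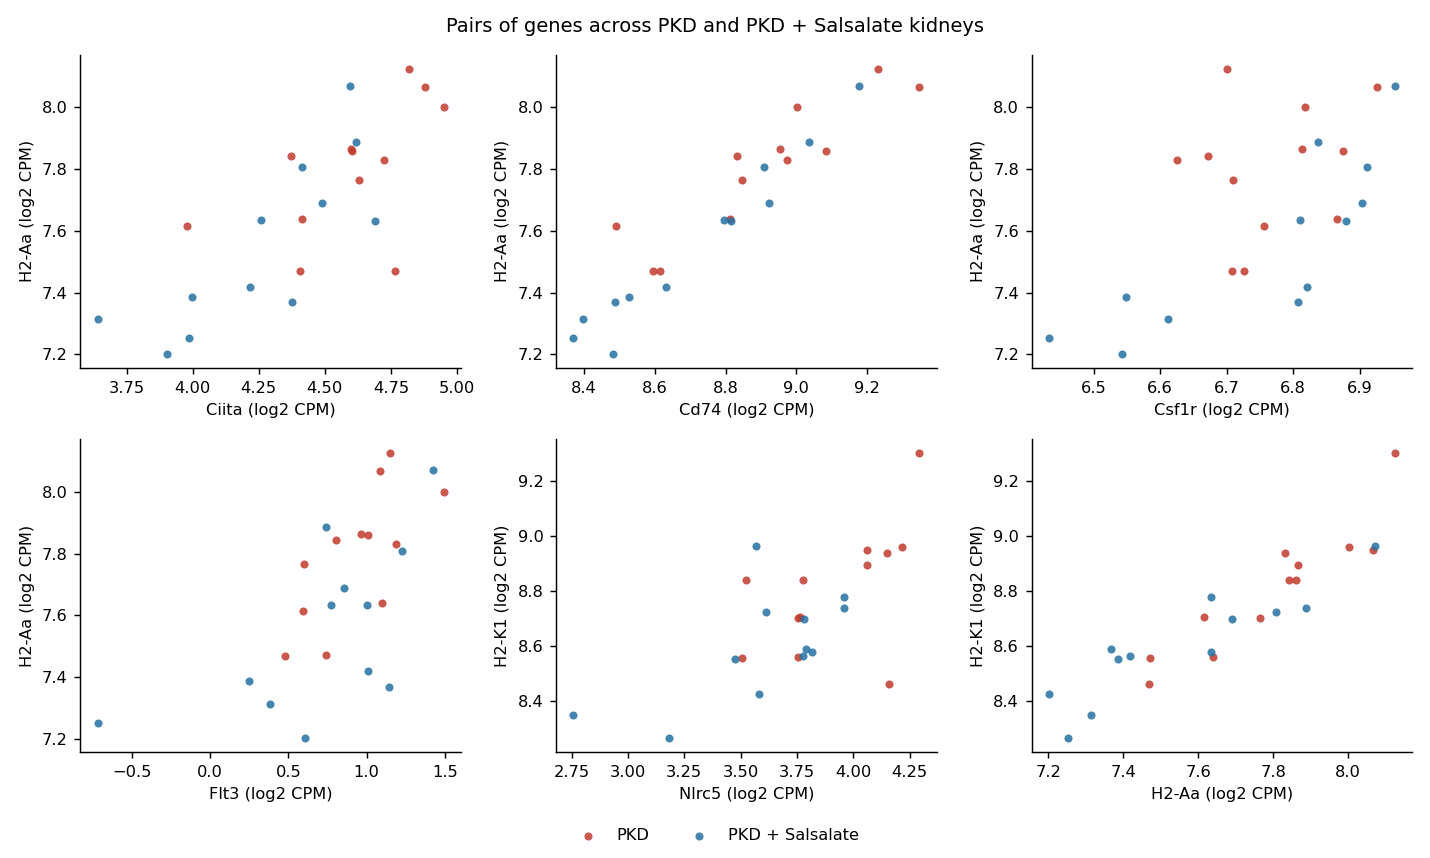
The 6 pairs of genes in the 12 PKD and 12 PKD + Salsalate kidneys (log2 CPM on both axes, 1 point per kidney). H2-Aa with Cd74 and H2-K1 with H2-Aa lie close to a line in both groups, while H2-Aa with Csf1r scatters in PKD (r = 0.245).

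Over the 24 kidneys of both PKD groups, centred on each group's mean, the genes of highest Pearson correlation with *H2-Aa* among all tested genes were *Cd74* (0.942), *H2-Eb1* (0.924), *H2-Ab1* (0.923), *H2-D1* (0.921) and *Ctss* (0.911). *H2-K1* followed at rank 9 and *Ciita* at rank 314 (0.706). For *H2-K1* they were *H2-D1* (0.953), *H2-Aa* (0.893), *Irf1* (0.870), the interferon regulatory factor, *H2-DMb2* (0.853) and *Tubgcp2* (0.850), and *Nlrc5* stood at rank 557 (0.580). *B2m* stood at rank 863 for *H2-K1* (0.532), although both encode chains of the same molecule. These correlations share libraries and scaling and are a description with no test.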

How the data were processed

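RNA of 32 kidneys was sequenced from poly(A) libraries made with a directional kit. Per the study's methods, the authors trimmed reads with cutadapt 2.10, aligned them with STAR 2.7.5a to GRCm39 and counted them by strand on the genes of Ensembl release 103 with HTSeq 0.12.4. The deposited counts are whole numbers without normalization, and between 7.13% and 9.82% of alignments per kidney were left uncounted as matching several places. The 5 summary lines of the counter were left out of library sizes and tests.

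Here, genes with log2 CPM over 1 in at least 25% of kidneys were kept, scaled by TMM and tested 2-sided with the quasi-likelihood test of edgeR 4.0.16 in R 4.3.3, with Benjamini-Hochberg adjustment. Replicates are kidneys of separate mice. At 11193136 counts, the shallowest kidney, a CPM of 0.268 equals 3 counts. No libraries agreed within sampling noise. The 10 genes and the 14 other lists were chosen with earlier results of these data known. Named are the 10 genes, the 3 largest called changes of each list in PKD against wildtype, every gene called with salsalate, *H2-DMb2*, *H2-Q10*, the 5 genes most like *H2-Aa* and *H2-K1*, *Pkd1*, and marker genes that are most abundant or near 0. Other listed genes are named to complete a group and were chosen after their values were seen. Relations used log2 CPM with a prior count of 2. Results for some listed genes are not reported here. On data simulated for PKD + Salsalate against PKD, 195 of 196 changed genes were recovered (99.5%) among 13863, with 13 false calls. Recovery at log2 fold changes as small as those of the 10 genes with salsalate (-0.33 to -0.17) was not tested. Alternatives were DESeq2 1.42.0, limma 3.58.1, other scalings and filters, subsets of libraries and a replicate block.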

Additional observations from a re-analysis of the deposited data

Results flagged for a closer look

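In the wildtype group 12 genes were searched for a kidney far from the others, at both ends. The highest wildtype kidney stood apart for *H2-Ab1*, at 187.2 CPM, with a gap of 0.541 of the group's range to the next kidney, and for *H2-K1*, at 431.2 CPM, with a gap of 0.594, where the limit for 8 samples is 0.526. Both values come from replicate 8, 1 of the 3 wildtype libraries without the ending R. Chance gives such a gap in about 1 of 20 groups. Groups of 12 were not searched.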

How the results depend on the processing

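In PKD against wildtype, 9 of the 10 genes passed with any 1 of the 32 kidneys left out (9 to 9), and 9 to 10 under 10 other settings. In PKD + Salsalate against wildtype 8 to 8 passed with a kidney left out and 6 to 8 otherwise, the lowest with only wildtype replicates 6 to 8. In PKD + Salsalate against PKD 0 to 0 passed with a kidney left out, and 1 (*B2m*) in a fit of only the 2 groups compared, where 195 instead of 81 genes of the whole table passed. Genes called over the whole table in this comparison were 199 with the Wald test of DESeq2, 146 with limma-voom and 48 with the replicate block. With the replicate block 9, 0 and 8 of the 10 genes passed in the 3 comparisons, and it changed no call among them. The numbers do not pair kidneys, since only 8 of 28 same-numbered pairs deviated together with a correlation over 0.1 (range -0.554 to 0.467).

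The sign of *Tap1* in PKD + Salsalate against wildtype turned against the libraries ending in R (-0.0746), without wildtype replicate 6 (-0.021) and without wildtype replicate 7 (-0.0299), within a range of -0.0299 to 0.0825 with a kidney left out, and it passed in none of these. The correlation of *H2-Aa* with *Csf1r* in PKD turned to -0.0411 without the 2 farthest kidneys and was 0.537 without TMM factors. Of the listed genes called in PKD near the threshold, *Canx* passed in 21, *Irf1* in 23, *Flt3* and *Itgae* in 28 and *Cd40* and *Cd274* in 31 of the 32 fits with a kidney left out, and *Irf1* (0.17) and *Flt3* (0.40) did not pass against the libraries ending in R. The fits of the other lists against each set of wildtype libraries and without PKD replicate 10 were added after seeing the data. Against the libraries without the ending R, 5 other class II genes and 3 nonclassical genes passed in PKD, instead of 8 and 5, and 1 liver transcript instead of 4. The tubule markers changed direction with the set, since 2 passed as higher and 2 as lower against all wildtype libraries, 6 and 1 against those ending in R, and 0 and 5 against the remaining 3. The other class II genes numbered 9 higher and 1 lower against those ending in R. The cause was not tested. Shares of all tested genes called in the fits with part of the wildtype libraries are not given beside these counts. Of the B cell list 0 genes passed against either set, because *Cr2* and *Pax5* then fell below the filter. Genes of about 10 CPM, such as *Nlrc5*, rest on as few as 74 counts in a kidney, which limits their precision.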
